A study of Mus musculus with 12 samples.

Results

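The culture by time contrast was examined in mesenchymal stem cells isolated from mouse fat, that is, how the difference between spheroids and attached cells changed between 0 h and 24 h. All 12 libraries of the series enter it, 3 each of attached 2D cells at 0 h, 2D cells at 24 h, 3D spheroids at 0 h and 3D spheroids at 24 h. All 4 groups come from the same kind of isolated cell, named only as mouse adipose tissue derived mesenchymal stem cells, and all were kept in DMEM with serum and antibiotics. The labels give no strain, age, sex or donor, and no length of spheroid formation before 0 h. Nothing in them ties the 3 libraries of a group to separate cultures. The p-values therefore reflect spread among libraries that may be technical only.

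The contrast is the log2 fold change of 3D over 2D at 24 h minus the same quantity at 0 h. A negative value means that a gene stood lower in spheroids, relative to attached cells, at 24 h than at 0 h. It was tested on 14338 genes of the 56748 in the table, after a filter on low counts. The deposited tables hold Ensembl gene IDs, and 0 of the 56748 are found in the RefSeq table used here, so known genes could not be named and the cell type could not be checked against its markers. The gene lists by symbol were not tested for the same reason. What follows therefore describes classes of genes, 4 single genes by ID, and lists of cell cycle genes that are given by Ensembl ID.

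As background, mesenchymal stem cells attach to plastic, spread and divide in 2D culture. In spheroids, cells lose contact with the stiff surface, bind to each other and to matrix that they make, and limited diffusion can lower oxygen and nutrients inside. Spheroid culture of such cells is studied for its effects on secretion and survival, and contact between cells is known to slow division in many cell types.

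Library totals ran from 10182590 to 17109609 expected counts, which are read counts per gene estimated by sharing out reads that fit several genes. Between 17046 and 20008 genes had a count after rounding. The TMM scaling factors ran from 0.917 to 0.991 in 2D, from 0.996 to 1.03 for spheroids at 0 h and from 1.06 to 1.08 for spheroids at 24 h, so the scaling itself differed by group.

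The culture difference changed with time for 5644 genes, or 39.4% of those tested (edgeR quasi-likelihood test, Benjamini-Hochberg adjusted p under 0.05). The contrast was positive for 2698 genes (18.8%) and negative for 2946 (20.5%). Large contrasts leaned to the negative side: 1993 genes were at least 2-fold negative and 1247 at least 2-fold positive, and 831 against 349 were at least 4-fold. The median over all genes tested was -0.02 on the log2 scale. Among all genes called at any size, positive genes became the more numerous with library totals in place of TMM (2859 positive, 2838 negative). They were also more numerous when only genes with whole counts in every library were used (2394 positive, 2164 negative) and with a filter of 5 CPM in 3 libraries (2667 and 2617). Leaving out a library turned the order in 5 of 12 fits. The counts were 2557 and 2511 when the omitted library was replicate 2 of 2D at 24 h, and 2523 and 2510 for replicate 2 of 3D at 0 h. Among spheroids at 24 h, they were 2909 and 2865 for replicate 1, 2558 and 2526 for replicate 2, and 2523 and 2519 for replicate 3.

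The genes fell into classes by what each time showed on its own. At 0 h, 23.1% of genes were called higher in 3D and 22.8% lower. At 24 h, the shares were 19.6% and 22.8%. These balances depend on the scaling: with library totals 3914 genes were higher and 2701 lower at 0 h, and 3637 and 2701 at 24 h, against 3313 and 3266, and 2814 and 3273, under TMM. Upper-quartile scaling gave 4026 and 2610 at 0 h, and limma on log2(TPM + 1) gave 3641 and 2229. A reversal was called at both times in opposite directions, an appearing difference only at 24 h, and a vanishing one only at 0 h. The contrast itself was called in each case, since a gene that passes at 1 time and not at the other is not thereby shown to differ.

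In the main fit, the largest family was that of vanishing differences, with 1963 genes. Of these, 894 (6.24% of genes tested) had been higher in 3D at 0 h and 1069 (7.46%) lower. The genes that had been higher had a median log2 fold change of 1.16 at 0 h and -0.11 at 24 h. Those that had been lower had -0.87 and 0.07. The size of the difference that was no longer called was small in most: its median absolute log2 value was 0.21 and 0.16. It still reached 0.5 in 130 and 51 genes, where missing the threshold does not show equal levels. Which direction held more vanishing differences turned with library totals (977 higher, 933 lower), upper-quartile scaling (1073 and 842) and limma on log2(TPM + 1) (1054 and 664) or log2(TPM + 0.1) (1010 and 672). The family's rank above appearing differences turned without replicate 1 or 2 of 2D at 0 h, and without replicate 1 or 2 of 3D at 0 h. Without 3D 0 h replicate 2, 773 higher and 919 lower differences vanished, while 790 higher and 955 lower ones appeared.

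Differences that appeared by 24 h numbered 1730. The spheroids were lower for 1013 of them (7.07%) and higher for 717 (5.00%). The lower ones had a median log2 fold change of 0.09 at 0 h and -1.21 at 24 h, and the higher ones -0.09 and 0.83. Of the genes that appeared lower, 619 were at least 2-fold lower at 24 h, against 272 at least 2-fold higher among those that appeared higher. With library totals, 827 appeared lower and 943 higher.

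A reversal was found in 956 genes. In 556 (3.88%) the spheroids were higher at 0 h and lower at 24 h, with medians of 0.76 and -0.91. In 400 (2.79%) they were lower at 0 h and higher at 24 h, with medians of -0.66 and 0.58. In 518 of the 556 and 363 of the 400, the 3D and 2D libraries did not overlap at either time. Over all genes tested, libraries separated in that crossed way in 5.32% (3D above, then below) and 4.44% (3D below, then above). Changes of at least 2-fold at both times were found in 113 and 50 of the reversed genes. With only genes of whole counts, the order of the reversed classes turned, to 391 and 409.

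**Figure D1:**
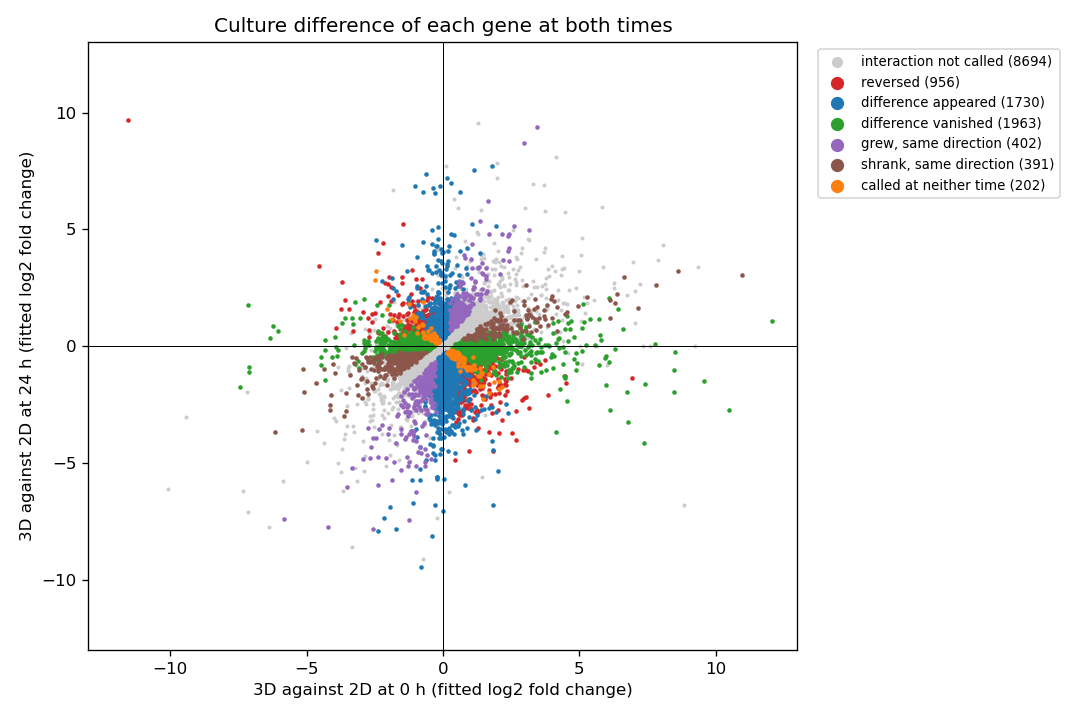
Each point is 1 of the 14338 genes tested, placed by its fitted log2 fold change of 3D over 2D, at 0 h on the x axis and at 24 h on the y axis, and coloured by class. The 956 reversed genes lie at the upper left and lower right, the 1730 appearing differences along the vertical axis and the 1963 vanishing ones along the horizontal axis.

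The remaining genes kept their direction or were called at neither time. In 402 genes the difference had 1 direction at both times and was larger at 24 h. Of these, 176 (1.23%) were higher in 3D and 226 (1.58%) lower. In 391 it was smaller at 24 h, 156 (1.09%) higher and 235 (1.64%) lower. The last 202 (1.41%) were called in the contrast alone. The 176 genes with a growing higher level had a median of 127 CPM in the highest group, that is, counts scaled to a common library size. The median over all genes tested was 27.9 CPM. The other classes called at both times also lay above it, at 47 to 99.3 CPM. So did differences that appeared higher (52.9 CPM), appeared lower (38.2 CPM) or vanished from a lower level (51.9 CPM). Those that vanished from a higher level lay below it, at 24 CPM, as did the genes called at neither time, at 20.6 CPM. Whether calls at both times favour abundant genes was not tested. Without 2D 24 h replicate 3, the genes whose higher level shrank fell from 156 to 99.

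The contrast equals the change over time in 3D minus that in 2D, so the same libraries also show which culture moved. Over 24 h in 3D, 23.7% of genes rose and 24.5% fell, and in 2D 17.3% rose and 17.0% fell. Among the 5644 genes of the contrast, 2620 (46.4%) were called over time in 3D and not in 2D. Only 2D was called for 1216 (21.5%), both in opposite directions for 1246, both in the same direction for 306 and neither for 256. These shares describe the called genes and come from the libraries that called them.

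The classes differed in this respect as counted. Reversed genes were often called in both cultures with opposite signs, in 247 of the 556 and 218 of the 400. In the former, the median change over time was 0.48 in 2D and -1.31 in 3D, and in the latter -0.55 and 0.80. Appearing differences had 3D as the only culture called in 53% of the higher and 51.9% of the lower genes. Vanishing differences had it in 48.5% and 44.9%, with 2D alone in 28.2% and 28.0%. No test compared these shares between classes.

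**Figure D2:**
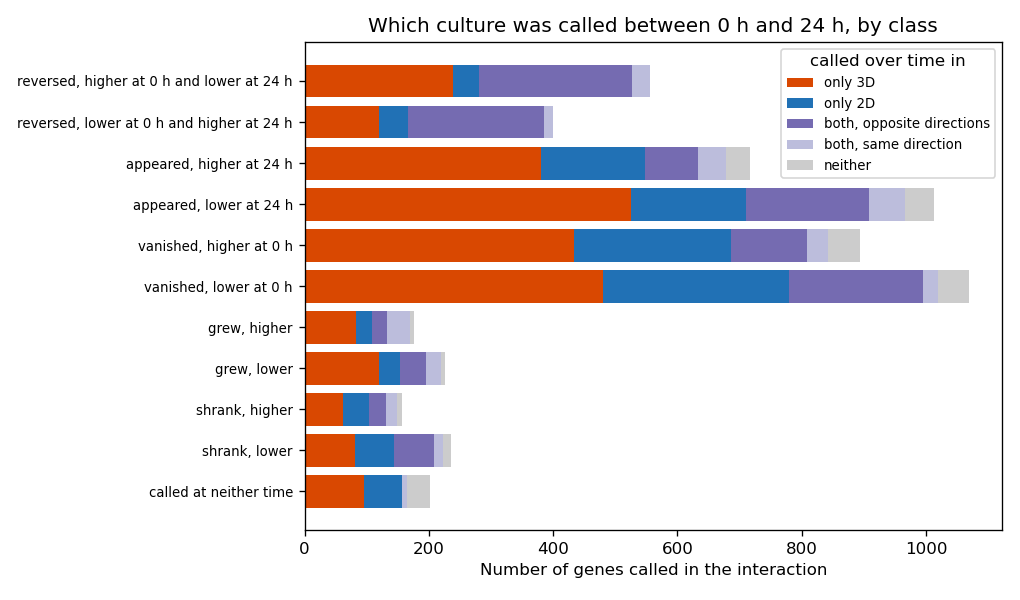
Bars give the number of genes of each class (x axis), split by whether the test of 24 h against 0 h called the gene only in 3D, only in 2D, in both or in neither. The 3D-only part holds 526 of the 1013 genes that appeared lower, and the part called oppositely in both cultures holds 247 of the 556 genes that reversed from higher to lower.

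Some genes set 1 group apart from the other 9 libraries. Spheroids at 24 h lay below all other libraries for 1177 of the called genes and above them for 806. Spheroids at 0 h lay below for 1022 and above for 1008. Attached cells stood apart less widely in these counts, with 522 below and 752 above at 0 h and 349 below and 567 above at 24 h. Among all genes tested, spheroids at 24 h lay above the rest for 11.2% and below for 11.8%, and spheroids at 0 h for 11.5% and 9.76%. The shares for attached cells were 8.99% and 7.10% at 0 h and 6.13% and 4.31% at 24 h. Over all genes, spheroids thus lay above the rest slightly more often at 0 h (1653 genes) than at 24 h (1602), and no test compared these counts.

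Presence in a single group was rare. The genes that averaged 10 CPM or more in 1 group and under 0.5 CPM in each of the other 3 numbered 8 for spheroids at 0 h, 2 for spheroids at 24 h and 0 for either 2D group. All 10 of these were called in the contrast, which the choice of such genes favours. A softer limit asked for a mean of at least 10 CPM that was over 10-fold above each other group. The counts were then 25 for spheroids at 0 h, 11 for spheroids at 24 h, 1 for 2D at 0 h and 0 for 2D at 24 h. Genes over 10-fold lower in 1 group, with at least 10 CPM in each of the other 3, numbered 12, all in spheroids at 24 h.

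For single genes, the gene with the largest contrast is given for 4 class directions, among those with clear separation of the libraries. They were selected on these values, so their values are a description. ENSMUSG00000067279 reversed from higher to lower in spheroids. In 3D at 0 h its libraries held 39.1, 34.6 and 39.7 CPM. In 2D at 0 h they held 0, 0.657 and 0.207 CPM. At 24 h the 2D libraries held 2.54, 1.80 and 2.32 CPM and the 3D libraries 0.436, 0.489 and 1.72 CPM. The excess at 0 h in spheroids was thus far larger than the difference in the other direction at 24 h, and the libraries did not overlap at either time. Its summed counts were 125-fold higher in 3D at 0 h (exact 95% counting interval 71.2 to 242) and 2.65-fold higher in 2D at 24 h (1.78 to 4.02). Its contrast was -8.30 ± 0.69 (SE; edgeR adjusted p = 6.6e-08). The difference at 24 h alone had an edgeR adjusted p of 0.028, with a log2 fold change of -1.37. It missed the threshold in 6 of the 12 fits that each left out a library, without 2D 24 h replicate 1 or 3, 3D 0 h replicate 1 or 2, or 3D 24 h replicate 1 or 2. In those fits the log2 fold change ran from -1.33 to -0.95, the last without 3D 24 h replicate 1 (edgeR adjusted p = 0.12). Without 3D 24 h replicate 3 it was -2.23 (edgeR adjusted p = 0.0017). It also missed it with DESeq2 (adjusted p = 0.058) and with limma on log2(TPM + 0.1) (adjusted p = 0.057).

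ENSMUSG00000109941 crossed the other way, with complete gaps. It had 41.9, 28.1 and 16.6 CPM in 2D at 0 h and 8.61, 8.24 and 6.88 CPM in 3D at 24 h. Every library of 3D at 0 h and of 2D at 24 h was at 0 counts. Taking 3 counts per group as the lowest measurable sum, it was at least 332-fold lower in 3D at 0 h and at least 96.6-fold higher in 3D at 24 h. In all 6 libraries where it was seen, its counts were fractional, which means that the reads also fit other genes. The level of this gene is thus uncertain. It met the limit on whole counts used to choose single genes only through its libraries at 0 counts.

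ENSMUSG00000040026 carried a difference that appeared at 24 h. It had 23.0, 56.1 and 48.4 CPM in spheroids at 24 h, and no other library exceeded 0.630 CPM. Its counts were 112-fold higher in 3D at 24 h (65.1 to 210), and at 0 h the 6 counts in 2D and 5 in 3D gave a ratio of 1.07 with an interval of 0.273 to 4.45. The contrast was 6.94 ± 2.00 (SE; edgeR adjusted p = 0.013). That call rested on very few counts at 0 h: without 2D 0 h replicate 1 the contrast was 5.10 with an edgeR adjusted p of 0.36, and without 3D 0 h replicate 3 it was 10.91 (0.0054).

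ENSMUSG00000030406 carried a difference that vanished. Spheroids at 0 h held 35.1, 45.7 and 42.4 CPM, and 2D at 0 h held no counts. By 24 h the 3D libraries held 0.0545, 0.245 and 0.299 CPM, and 2D held 3 counts, all in replicate 2. The ratio at 24 h, from 8 counts against 3, was 2.20 with an interval of 0.529 to 12.9. Its contrast was -11.00 (edgeR adjusted p = 0.00061), a fitted value that depends on the prior count. Without 2D 24 h replicate 2, both 2D groups held 0 counts and the edgeR adjusted p was 1. For this gene the change seen in the counts is the drop in spheroids over 24 h. Intervals and floors cover counting error only.

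**Figure D3:**
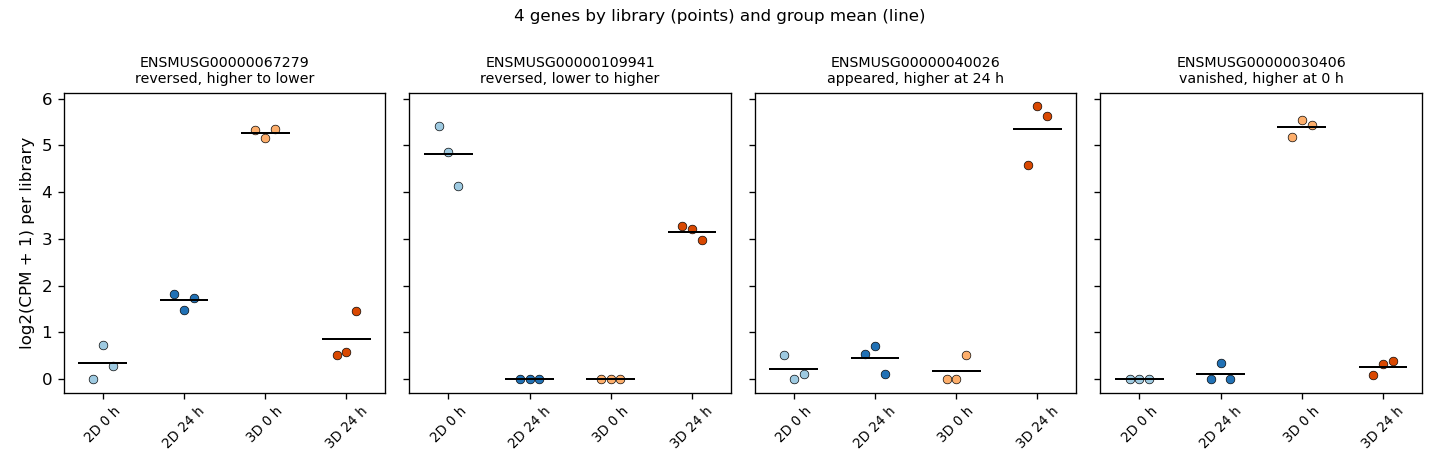
Points are libraries and lines are group means of log2(CPM + 1), with the 4 groups on the x axis, for 1 gene per panel. ENSMUSG00000067279 and ENSMUSG00000030406 are high in 3D at 0 h, ENSMUSG00000040026 is high in 3D at 24 h, and ENSMUSG00000109941 is seen in attached cells at 0 h and in spheroids at 24 h.

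Most genes of the G2/M list had a negative contrast. G2/M is the stretch of the cell cycle in which a cell prepares for mitosis and divides, S is the stretch of DNA copying, and G1 the growth stretch before it. The lists are genes that lead marker pairs of a phase in a published mouse set, and they share some members. They were taken up after results of these data were known, so they support no independent claim. Of 93 G2/M genes, 92 passed the filter. The contrast was negative for 63 (68.5%, against 20.5% of all genes) and positive for 9 (9.78%, against 18.8%). It was at least 4-fold negative for 42 of the 92, against 831 of the 14338 genes tested. The list's median was -1.76, with quartiles of -2.81 and -0.30, beside -0.02 over all genes.

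At 0 h the list's median log2 fold change of 3D over 2D was 0.14, with members on both sides, and at 24 h it was -1.84. In 20 of the 92 (21.7%, against 3.88% of all genes) the spheroids were higher at 0 h and lower at 24 h, and in 0 the reverse. For these 20 the log2 fold change at 0 h ran from 0.32 to 1.03, with a median of 0.72. At 24 h it ran from -2.82 to -0.40, with a median of -2.29. The 3D and 2D libraries of all 20 did not overlap at either time, as in 518 of the 556 genes of this class. Libraries separated in that crossed way in 5.32% of all genes. Calls at both times in opposite directions favour such gaps, so the gaps add no support of their own. A further 31 (33.7%, against 7.07%) appeared lower at 24 h, with medians of 0.14 and -2.36. Another 7 of the 92 were lower at both times and more so at 24 h, a class that holds 1.58% of all genes. The count of reversed members stayed between 15 and 22 in the 21 alternatives run.

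**Figure D4:**
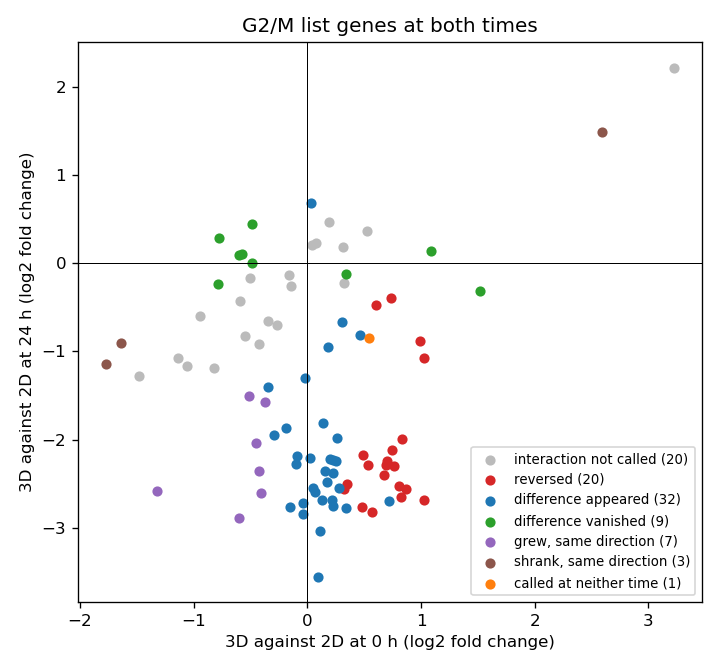
Each point is 1 of the 92 G2/M list genes tested, placed by its log2 fold change of 3D over 2D, at 0 h on the x axis and at 24 h on the y axis, and coloured by class. The 20 reversed genes and the 31 that appeared lower lie near or right of 0 on the x axis, with medians of -2.29 and -2.36 on the y axis.

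Levels per gene length showed the same members in each library. TPM is the number of transcripts of a gene in a fixed transcript total, corrected for gene length. The 20 reversed G2/M genes summed to 413, 405 and 415 TPM in 2D at 0 h and 689, 669 and 699 TPM in 3D at 0 h. At 24 h they summed to 608, 673 and 634 TPM in 2D and 217, 188 and 201 TPM in 3D. Spheroids therefore had the highest mean at 0 h, with libraries that overlapped those of 2D at 24 h, and lay below all other libraries at 24 h. Attached cells lay higher at 24 h than at 0 h. The 31 genes that appeared lower went from 1290 ± 20.2 to 418 ± 25.9 TPM in 3D and from 1120 ± 11.9 to 1630 ± 129 TPM in 2D (SD, n = 3). Both sets were chosen by their values, so these sums are a description.

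The sum over the whole G2/M list ran differently at 0 h, and 5 members held a large part of it. It was 8650 ± 157 TPM in 2D and 7040 ± 89.2 TPM in 3D at 0 h, and 8850 ± 403 and 4450 ± 180 TPM at 24 h (SD, n = 3). The 5 most abundant members alone held 4780 ± 248 TPM in 2D and 2910 ± 66.9 TPM in 3D at 0 h. At 24 h they held 4090 ± 214 and 2240 ± 72.1 TPM. Of these 5, all were called lower in 3D at 24 h and 4 at 0 h, and only 1 was called in the contrast, with a smaller difference at 24 h. The other 88 members summed to 3870 ± 93.4 TPM in 2D and 4120 ± 71.5 TPM in 3D at 0 h. At 24 h they summed to 4750 ± 216 and 2210 ± 109 TPM. In the summed level of the list, 5 abundant members with a lower sum in spheroids at both times thus stood beside less abundant ones. The sum of the less abundant members had a higher mean in spheroids at 0 h and a lower one at 24 h.

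**Figure D5:**
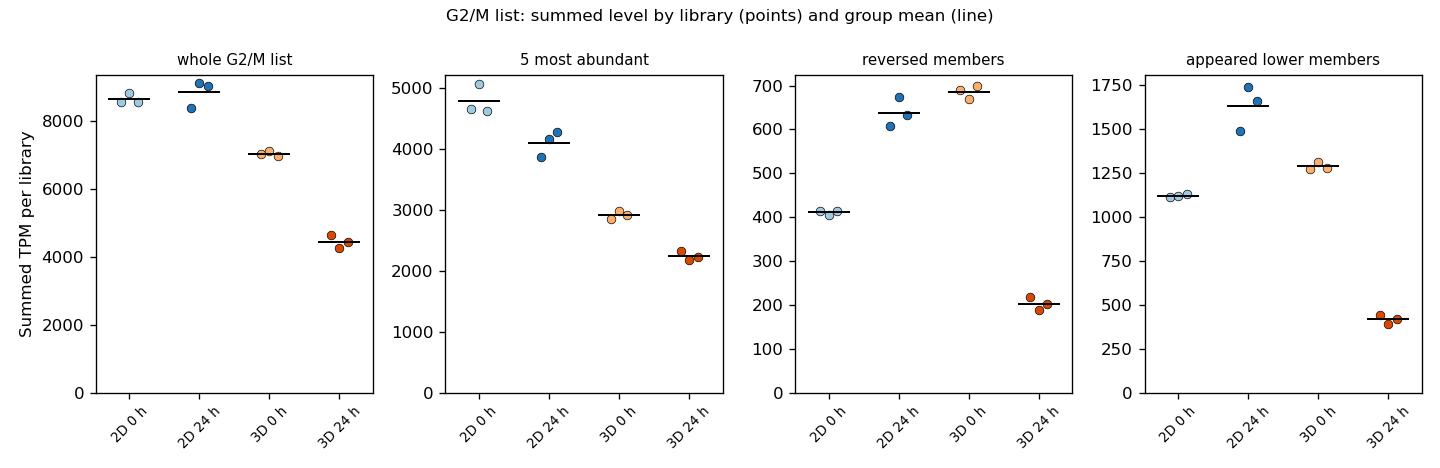
Points are libraries and lines are group means of the summed TPM of G2/M list genes, from 0 on the y axis, for the whole list, its 5 most abundant members, the 20 that reversed and the 31 that appeared lower. The reversed members reach 669 to 699 TPM in 3D at 0 h and 188 to 217 TPM in 3D at 24 h, while the 5 most abundant members are lower in 3D than in 2D at both times.

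In the list's medians, the G2/M contrast was mainly a fall in 3D, with a small rise in 2D. Over 24 h, 65 of the 92 genes fell in 3D and 7 rose, where 24.5% of all genes fell. In 2D, 31 rose and 10 fell, where 17.3% of all genes rose. The median change was -1.43 in 3D and 0.16 in 2D. The rise in 2D was not particular to this list: the S and G1 lists had medians of 0.20 and 0.17 there. In 3D their medians were -0.16 and 0.07. Of the 63 genes with a negative contrast, 30 were called over time in 3D alone, 26 in both cultures with opposite signs, 4 in 2D alone, 1 in both with the same sign and 2 in neither. In bulk RNA, fewer dividing cells and less of these transcripts per cell cannot be told apart.

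The S and G1 lists had medians nearer to 0. Of the 80 S genes, 29 (36.2%, against 20.5% of all genes) had a negative contrast and 10 (12.5%, against 18.8%) a positive one, and the median was -0.34. The S genes that appeared lower at 24 h numbered 18 (22.5%, against 7.07%), with a median of -1.41 at that time, and 2 (2.5%, against 3.88%) reversed from higher to lower. The list's summed level was 2420 ± 143 and 2790 ± 55.3 TPM in 2D and 3D at 0 h, and 2910 ± 211 and 2770 ± 254 TPM at 24 h (SD, n = 3). The 3D over 2D difference of the sum thus also moved downward. Here the mean rose in 2D, from 2420 to 2910 TPM, and was little changed in 3D, at 2790 and 2770 TPM. At 24 h its 2D and 3D libraries overlapped. Of the 116 G1 genes tested, 32 (27.6%, against 20.5%) were negative and 21 (18.1%, against 18.8%) positive, with a median of 0.03. The class with the most G1 genes was that of differences that appeared lower, with 14 (12.1%, against 7.07%). Vanished differences numbered 10 from a higher and 10 from a lower level in 3D at 0 h, classes that hold 6.24% and 7.46% of all genes. With limma on either TPM scale, the positive members numbered 4 in the S list and 13 in the G1 list.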

How the data were processed

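The members and lists were chosen with earlier results of these data known. The labels' protocols name a SMART-seq v4 low-input kit under RNA extraction and a stranded TruSeq mRNA kit for the libraries. FastQC 0.11.9, STAR, RSEM and build GRCm39 are named in the submitters' processing notes; their settings and the annotation are not stated. Per the file names and values, the authors deposited gene-level expected counts and log2(TPM + 1) values. Column names give D0 and D1, read as 0 h and 24 h.

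Expected counts were rounded and analysed across all genes in R 4.3.3 with edgeR 4.0.16 (filter with minimum count 10, TMM, robust quasi-likelihood fit with 1 term per group on all 12 libraries, 8 residual degrees of freedom, Benjamini-Hochberg adjustment, threshold 0.05). Alternatives used DESeq2 1.42.0 and limma 3.58.1. On data simulated without any contrast except in 200 genes, this fit was run on 14338 genes. It recovered 76% of 2-fold and 96% of 4-fold contrasts, and 2.82% of its calls were false. The 200 were drawn only from more abundant genes, so the recovery does not cover genes with low counts. Far more genes, 5644, were called in the data, so the share of false calls there may differ.

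Single genes were ranked by the contrast of log2(mean CPM + 1), among genes with at least 10 CPM in the highest group, a log2 fold change of at least 1 and no overlap of libraries in the times called, and whole counts (0 included) in at least 6 libraries. The rule's filter on gene symbols could not be applied, and at most 2 IDs per sign are given. The 32 symbol lists and the planned promoter search were not run. Cell cycle lists came from the marker pairs in scran 1.30.0: genes placed first in 20 or more pairs of a phase and placed second in no more than 10% of their pairs. No replicate pair agreed within sampling noise (chi-square per degree of freedom at least 4.56).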

Additional observations from a re-analysis of the deposited data

Results flagged for a closer look

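The 3D against 2D difference changed between 0 h and 24 h by the edgeR test of that change itself for 2698 genes upward and 2946 downward. Reversals numbered 556 from higher to lower and 400 from lower to higher. Of the genes given by ID, the contrast was -8.30 for ENSMUSG00000067279, 21.23 for ENSMUSG00000109941, 6.94 for ENSMUSG00000040026 and -11.00 for ENSMUSG00000030406. The fitted values of ENSMUSG00000109941 and ENSMUSG00000030406 depend on the prior count, since each has groups at 0 counts, and all 4 were picked for the size of their contrast. That of ENSMUSG00000040026 was 5.10 (edgeR adjusted p = 0.36) without 2D 0 h replicate 1 and 10.91 (0.0054) without 3D 0 h replicate 3. The counts of ENSMUSG00000109941 were fractional wherever it was seen, so its level is uncertain.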

How the results depend on the processing

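Calls in the contrast and in 3D against 2D at each time, the classes, the calls and median contrast of the cell cycle lists and 3 of the 4 genes were recomputed under 21 alternatives, and ENSMUSG00000109941 under 20, since its counts were not whole. Calls over time within a culture (other than the called genes that moved in 1 culture alone), counts past 2-fold or 4-fold, of single groups standing apart and of single-group presence, and summed TPM, had no alternative. Of the alternatives, the restriction to genes with whole counts and all settings for the cell cycle lists were added after seeing the data. Called counts in the contrast ran from 1976 to 2958 positive and 2164 to 3141 negative outside the fits that left out a library. In those fits they ran from 2288 to 2909 and from 2510 to 3065. Counts that moved by over 1.5 times came mostly from limma on TPM values. With log2(TPM + 1), 664 lower differences vanished, 144 grew and 127 shrank, and with log2(TPM + 0.1) the counts were 672, 138 and 120. Positive members went from 10 to 4 in the S list and from 21 to 13 in the G1 list under both. Leaving out each library in turn, higher differences that shrank ran from 99 to 189. The cause was not tested. The G2/M list had 54 to 65 negative members and a median between -1.95 and -1.62. Median contrasts over all genes lay between -0.14 and 0.04. Library totals put the median 3D over 2D difference at 0.12 at both times, and upper-quartile scaling at 0.14 at 0 h and 0.06 at 24 h. With the replicate number as a block, 2423 genes were positive and 2741 negative, and it changed no call of the 4 genes. Same-numbered libraries did not deviate together (correlations from -0.234 to 0.0518, 0 of 18 over 0.1), so the numbers were not taken as pairs. The symbol lists were not run. Depth limits genes with a few counts per group, such as ENSMUSG00000040026 at 0 h.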
